A study of Caenorhabditis elegans with 2 samples.

Results

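The 10 genes described here encode subunits of the SWI/SNF chromatin remodelling complex of Caenorhabditis elegans, out of 19973 protein-coding genes on the nuclear chromosomes. The measurements are peaks and candidate regions of EOR-1 binding at these genes. The genes were taken by name: swsn-4, swsn-1, snfc-5, swsn-3, swsn-6, ham-3, swsn-2.2, pbrm-1, swsn-9 and swsn-7. Binding was measured by ChIP-seq (sequencing of immunoprecipitated chromatin) in whole L3 larvae, males and females pooled, of strain OP81, which carries the unc-119(ed3) mutation and the transgene wgIs81 with eGFP-tagged eor-1. There was 1 group of 2 biological replicates and no second condition or genotype, so the genes are compared with all other genes and between replicates. Because whole animals carrying a tagged transgene were used, a region cannot be assigned to a cell type.

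SWI/SNF complexes use the energy of ATP to slide or evict nucleosomes and so open DNA to transcription factors. The complex has a core shared by all its forms and signature subunits that define 2 forms, called BAF and PBAF in mammals. EOR-1 binds DNA through zinc fingers, and both EOR-1 and SWI/SNF subunits are known from worm genetics to be needed for the differentiation of serotonergic neurons. The question addressed here is where peaks and candidate regions of EOR-1 lay at the genes of the complex.

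Each deposited region has a summit and a signal value, which is the authors' own score on a scale that is not stated. A region was given to a gene when its summit lay within the gene or up to 5000 bp upstream of the gene start. Candidate regions, which hold peaks and background alike, were listed for the pooled replicates and for each replicate (30000 regions in each list), and the optimal list held 285 peaks after filtering for reproducibility, of which 256 were nuclear. Those 256 were exactly the 256 nuclear regions of highest pooled signal. The lowest of them had a signal of 52.7 and the highest nuclear region outside the list had 52.6. Read depth is unknown, which leaves single signals without an error, and the replicates are therefore reported separately and not averaged. All positions are in build ce11 (WBcel235), counted from 1.

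Candidate EOR-1 regions were found at some genes of the complex and not at others. Of the 10 genes, 1 (pbrm-1) had an optimal peak in its window, against 2.14% of all protein-coding genes. A pooled candidate summit was found at 5 genes (pbrm-1, swsn-9, swsn-3, swsn-6 and swsn-1), against 57.2% of all genes, and the same 5 had a candidate summit in each replicate, against 56.5%. Both of these counts were near the share of all genes. The summits of the replicates need not lie at the same place: at swsn-6 no pooled region overlapped a region of replicate 2. A further 2 genes, swsn-2.2 and ham-3, had candidate summits in replicate 1 alone, and 10.3% of all genes had them in exactly 1 replicate and not in the pooled list. The remaining 3, swsn-4, swsn-7 and snfc-5, had no candidate summit in any of the 3 lists, against 28.7% of all genes.

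**Figure D1:**
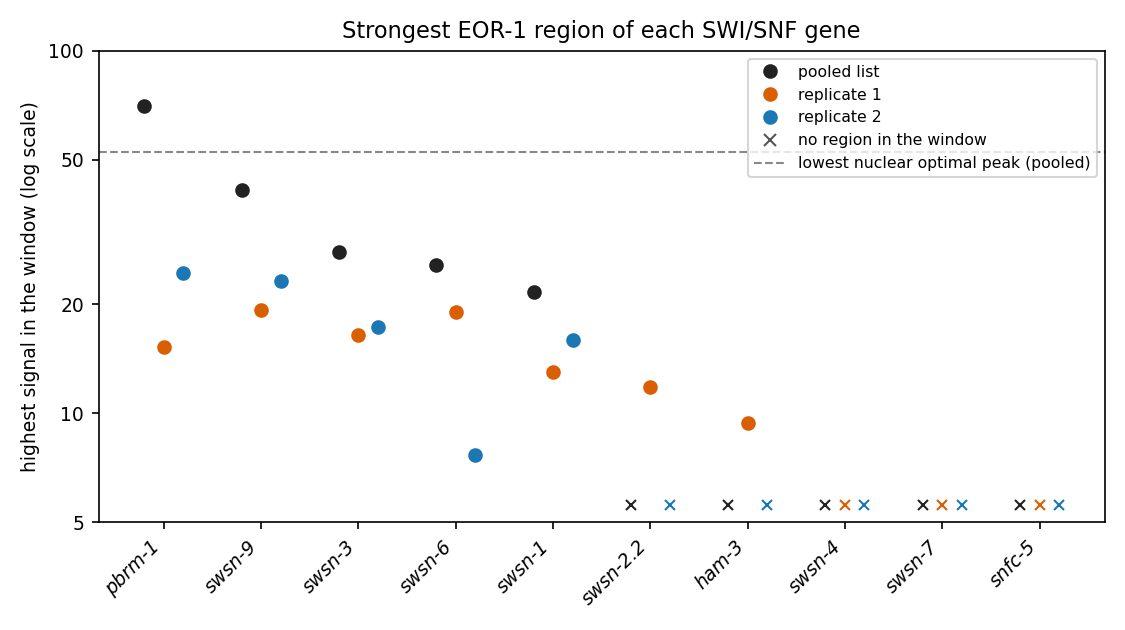
The highest signal in each gene's window (vertical log axis, authors' scale) is plotted for the pooled list (black), replicate 1 (orange) and replicate 2 (blue); crosses near the bottom mark lists with no region and the dashed line is the lowest nuclear optimal peak, 52.7. The pbrm-1 gene alone lies above the line, with 70.2 in the pooled list, and 3 genes have no region in any list.

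The windows of the 10 genes spanned 93.78 kb in all and held 27 pooled candidate summits, or 0.288 per kb, against 0.268 per kb over the windows of all genes. Replicate 1 had 25 summits in them (0.267 per kb, against 0.273 over all genes) and replicate 2 had 27 (0.288 per kb, against 0.273). The number of regions per kb over the complex was thus close to that over genes at large. By gene, the pooled list had 8 summits at swsn-1, 7 at swsn-3, 6 at pbrm-1, 3 each at swsn-9 and swsn-6, and 0 at the other 5. Of all genes, 57.2% had 1 or more pooled summits. Windows of the 10 genes ran between 6500 and 15307 bp, with the longest at swsn-1. Signals of the 27 pooled regions ran between 13.4 and 70.2, with 41.4 and 27.9 next below the highest. Over the 5 genes with a pooled region, the median of the strongest signal was 27.9, against 26.1 over the 11417 genes with one.

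Among the 10 genes, the highest pooled signals were at pbrm-1 and swsn-9, which encode PBAF signature subunits. The third PBAF gene of the 10, swsn-7, had no region. A candidate signal like that of swsn-9 was not confined to PBAF genes. The BAF gene let-526, which is not among the 10, had 42.2, above the 41.4 of swsn-9. Its window was longer, at 21541 bp against 8110 bp. The let-526 summit was nearer to the start of F48C1.3 (1115 bp) than to that of let-526 (1944 bp). Its −log10 q value was 0.66. The pbrm-1 gene encodes polybromo, a protein with several bromodomains that read acetylated histones, and lies at I:7495436-7503582 on the plus strand. Its optimal peak, I:7494348-7494643, had a pooled signal of 70.2, which ranked 141 among all pooled regions and 112 among nuclear ones, and a −log10 q value of 2.50, the highest in the list, which 160 peaks shared. By its strongest pooled region, pbrm-1 stood at place 188 of the 19973 genes. The summit was 940 bp upstream of the pbrm-1 start, but only 240 bp inside T28F4.4, the divergent neighbour, where the annotation places it in an intron. When a summit counted only for the gene with the nearest start, the peak went to T28F4.4, no SWI/SNF gene had an optimal peak, and the share of all genes with one was 0.981%.

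The replicates were uneven at this peak. Replicate 2 had an overlapping region with a signal of 24.3, at rank 621, whose summit was 20 bp away. Replicate 1 had no overlapping candidate region, and its nearest summit was 2303 bp away, with a signal of 15.2. Within 2000 bp of the optimal summit the pooled list held 3 summits and replicate 2 held 5, but replicate 1 held 0. Replicate 2 also had a region 328 bp upstream of the pbrm-1 start, in the intergenic stretch, with a signal of 23.4 at rank 757, and neither the pooled list nor replicate 1 had a region there.

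The pooled signal at pbrm-1 was 2.89 times the replicate 2 signal, a difference of 45.9. At the 249 nuclear optimal peaks with a region in both replicates, the same ratio ran between 1.29 and 6.99 with a median of 2.02, and 17 of them had a higher ratio than pbrm-1. The ratio at pbrm-1 was thus within the range of shared peaks, but at those peaks replicate 1 had a region as well. In the replicate 1 list the lowest nuclear signal was 8.06, below the difference of 45.9 at pbrm-1. At those shared peaks the pooled signal was 0.755 to 1.19 times the sum of both replicate signals, with a median of 0.999, a sum that pbrm-1 lacks because replicate 1 lists no region there. The replicate 2 signal at pbrm-1 was place 220 of the 255 nuclear optimal peaks that had one, for which the median was 35.1. Read coverage at pbrm-1 was not used here, so whether replicate 1 had signal that its list leaves out was not tested.

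**Figure D2:**
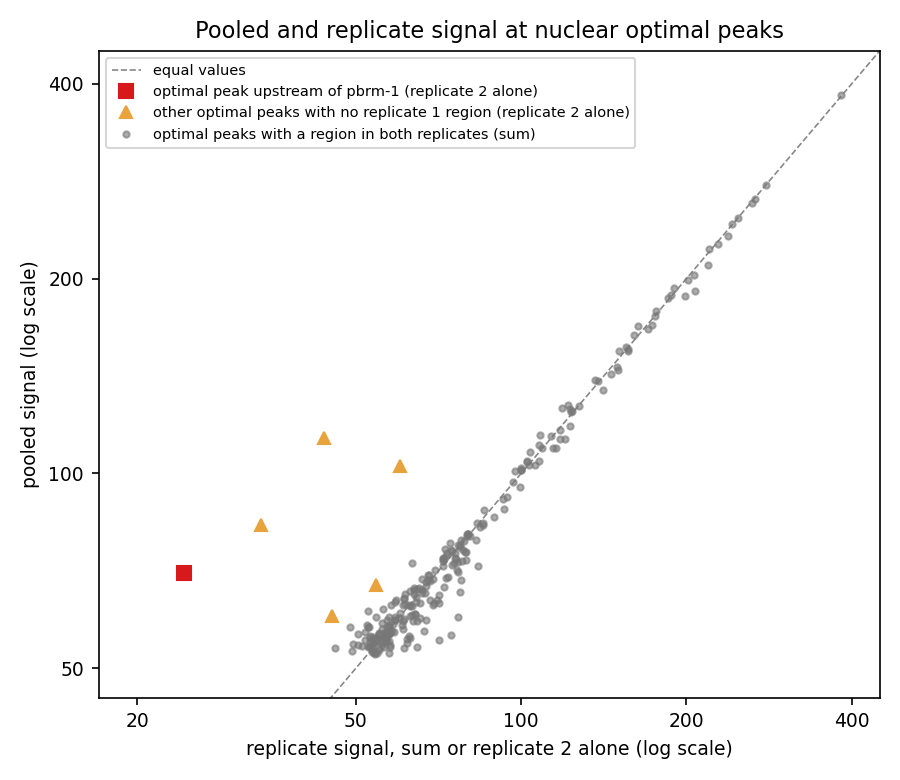
Pooled signal (vertical, log scale) is plotted against replicate signal (horizontal, log scale) at nuclear optimal peaks; grey circles are the 249 peaks in both replicates, set at the sum of both signals, and the red square (pbrm-1) and orange triangles are the peaks with no replicate 1 region, set at the replicate 2 signal alone. Grey points follow the dashed line of equal values, and pbrm-1 lies left of it, at 24.3 on the horizontal and 70.2 on the vertical axis, with the replicate 2 signal alone counted; a single peak with no replicate 2 region is not drawn.

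Missing from replicate 1 were 6 of the 256 nuclear optimal peaks, and 1 was missing from replicate 2. The peaks of closest pooled signal to that at pbrm-1 among these were those with the nearest gene starts of ogt-1 (67.2 in the pooled list, 54.5 in replicate 2), of lgg-2 (60.2 and 45.2) and of cdc-48.1 (83.3 and 33.5). The ratio of pooled to replicate 2 signal was 1.23 at ogt-1, 1.33 at lgg-2 and 2.49 at cdc-48.1, so that at pbrm-1 was the highest of the 6. Replicate 1 had a separate region 399 bp from the ogt-1 peak and 669 bp from the lgg-2 peak, but the nearest one to the cdc-48.1 peak was 3511 bp away.

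The other 5 pooled regions at pbrm-1 were weaker and lay farther upstream, in introns of T28F4.4, some of them also in UTRs of T28F4.5. Their pooled signals were 26.0 at 1942 bp, 13.5 at 2604 bp, 24.0 at 3243 bp, 16.7 at 3608 bp and 27.2 at 4889 bp upstream. Only those at 3243 bp and 4889 bp had a region in both replicates, with 15.2 and 15.2 in replicate 1 and 17.1 and 14.4 in replicate 2. Of all lists, 0 candidate summits fell within the pbrm-1 gene itself.

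The swsn-9 gene, I:7224656-7227765, encodes a bromodomain subunit related to mammalian BRD7 and BRD9. Its strongest region had a pooled signal of 41.4, at rank 721, with 19.3 in replicate 1 (rank 2837) and 23.2 in replicate 2 (rank 793). The summit lay 69 bp upstream of the gene start, in intergenic sequence, and no other protein-coding gene start was closer. All 3 candidate lists held this region, but it was below the lowest nuclear optimal signal of 52.7. Its pooled −log10 q value was 0.64, against 2.50 at the pbrm-1 peak. The strongest pooled regions of swsn-3, swsn-6 and swsn-1 had 0.30, 0.27 and 0.23. Such low values do not separate these candidates from background. By its strongest region swsn-9 stood at place 1034 of all genes. Weaker pooled regions lay 2568 bp upstream, closer to the start of cnnm-4 (18.6), and 355 bp inside the gene (19.0). The swsn-7 gene, whose protein resembles mammalian ARID2, had no candidate in its window of 10132 bp. The nearest summit lay 9496 bp outside that window in the pooled list, 9504 bp in replicate 1 and 7668 bp in replicate 2.

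**Figure D3:**
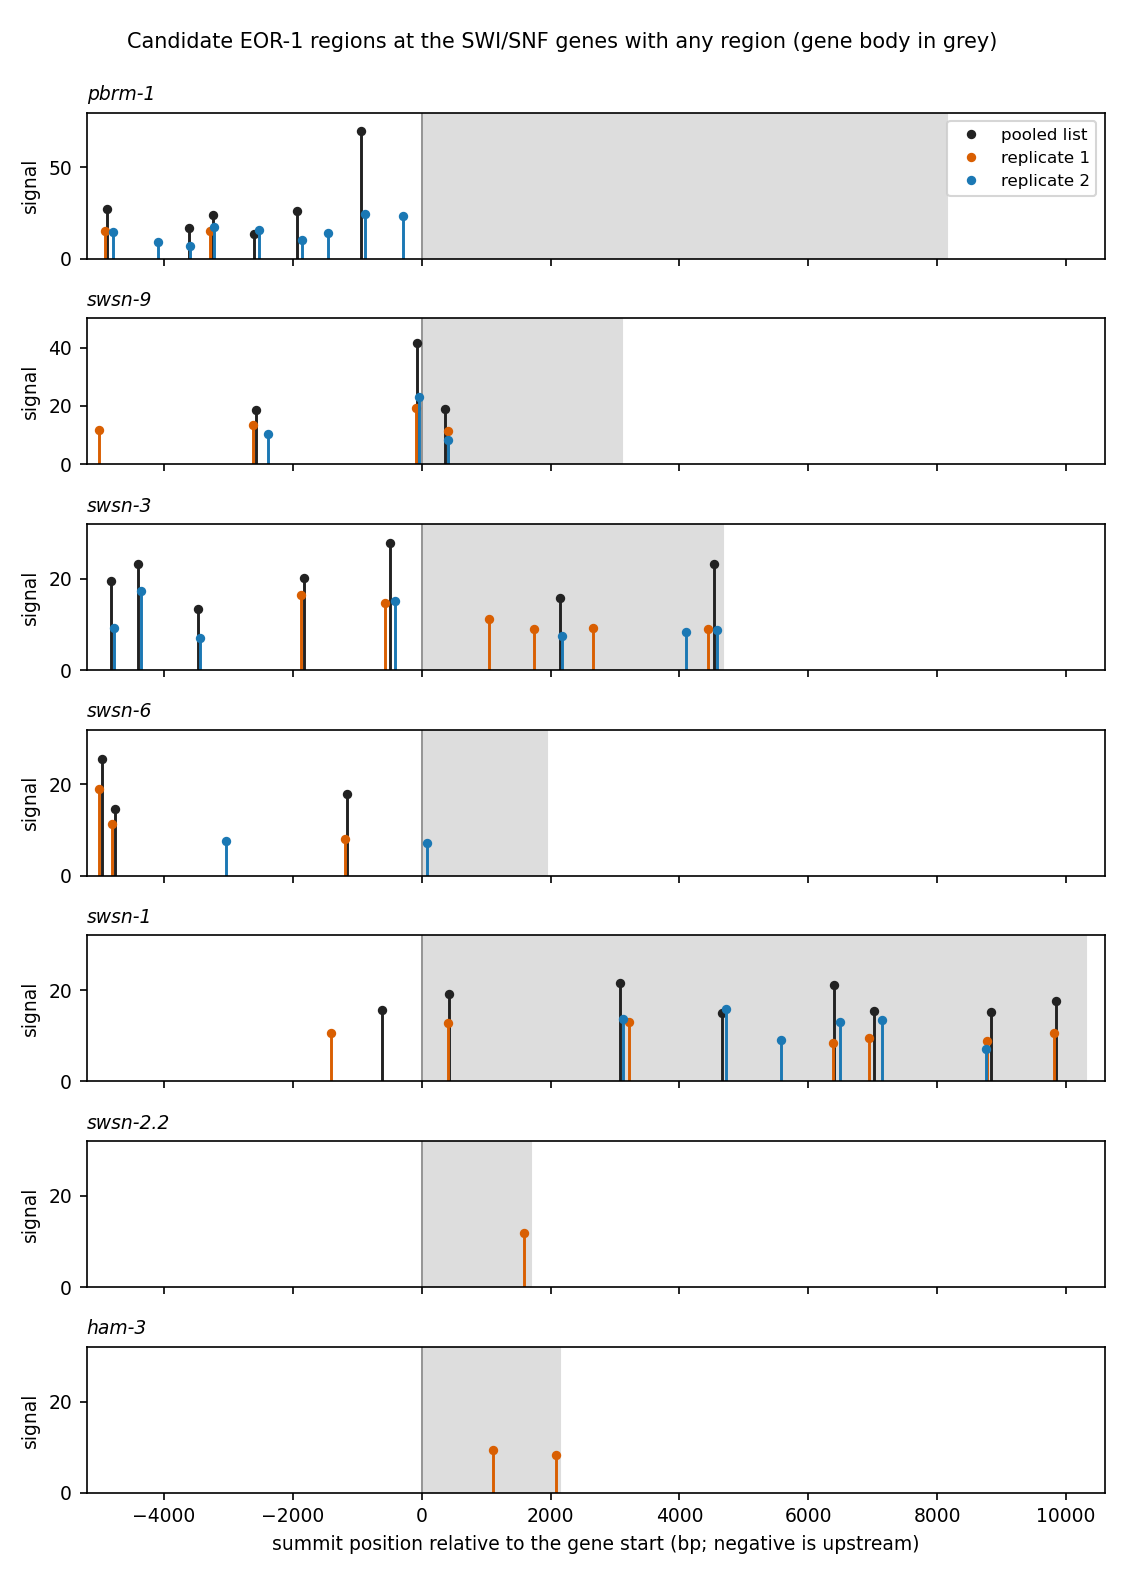
Signal (vertical, authors' scale, with different limits for pbrm-1 and swsn-9) is plotted against the summit's distance from the gene start for the 7 genes with any region, drawn in the gene's own direction with the gene body in grey; replicate lines are shifted slightly to either side so that they can be seen. At pbrm-1 the tallest pooled line (70.2) has a replicate 2 line beside it and no replicate 1 line, whereas at swsn-9 all 3 lists share the region at the start.

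Among the catalytic and core scaffold genes, swsn-4 and snfc-5 had no candidate region and swsn-1 had weak ones. Lack of a candidate in all lists was common, at 28.7% of all protein-coding genes. The swsn-4 gene encodes the ATPase, the counterpart of Brahma in flies, and had 0 candidate summits in each list over a window of 10139 bp. The nearest one was 4263 bp outside the window in the pooled list, 3322 bp in replicate 1 and 3219 bp in replicate 2. The snfc-5 gene encodes the SNF5-like core subunit and also had none, with the nearest summit 3260 bp, 2492 bp and 2869 bp outside its window in the same lists. The swsn-1 gene encodes a SANT domain scaffold subunit, is the longest member locus and held 8 pooled summits, the most of any member, of which 7 were inside the gene. Its highest pooled signal was 21.6, at rank 11551, with 13.0 in replicate 1 and 13.7 in replicate 2. The replicate 1 summit was 189 bp from the pooled one, and that of replicate 2 was 5 bp away. The pooled summit lay 3076 bp inside the gene, in a 5′ UTR, at position -349 relative to the start of a shorter swsn-1 transcript. The region 4654 bp inside lay at position -371 relative to a shorter transcript's start and had 15.1 in the pooled list and 15.9 in replicate 2, with none in replicate 1. Around the outermost start, the region 429 bp inside had 19.1 in the pooled list and 12.8 in replicate 1, and that 624 bp upstream had 15.6 in the pooled list and overlapped a region of neither replicate.

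Among accessory genes, swsn-3 and swsn-6 had regions of middling signal. The swsn-3 gene encodes an HMG box subunit of the mammalian BAF57 type. Its strongest region, III:2769020-2769315, lay 489 bp upstream of its start and had 27.9 in the pooled list (rank 4787), 14.7 in replicate 1 (rank 8299) and 15.1 in replicate 2 (rank 5421). Both replicates therefore listed it, with close values on the authors' scale but at different ranks. The annotation also places it in a long intron of cox-6B. Of the other 6 pooled regions of swsn-3, 2 were in both replicates, those 4529 bp inside the gene, in the 3′ UTR (23.3), and 4824 bp upstream (19.5). For the latter, the replicate 1 summit was 205 bp from the pooled one. The region 1827 bp upstream had 20.2 in the pooled list and 16.4 in replicate 1, with none in replicate 2. That 4401 bp upstream had 23.3 in the pooled list and 17.3 in replicate 2, with none in replicate 1. The swsn-6 gene encodes an actin-related protein. Its pooled regions had 25.6 at 4966 bp, 14.6 at 4765 bp and 18.0 at 1155 bp upstream of the start. In replicate 1 they had 19.0, 11.3 and 8.10, and in replicate 2 there was no overlapping region at any of them. The strongest was nearer to the starts of htp-1 and elo-6 than to that of swsn-6. Replicate 2 had its own weak regions 3078 bp upstream (7.69) and 34 bp inside the gene (7.27).

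The BAF60-type genes swsn-2.2 and ham-3, the second of which is known for its part in the differentiation of the serotonergic HSN neurons, had no region in the pooled list or in replicate 2. In replicate 1, swsn-2.2 had 1 region at its 3′ end (11.8, rank 15146), whose summit was closer to the start of C18E3.1. The ham-3 gene had 2 regions in replicate 1, 1145 bp inside it (9.40, rank 23968) and at its 3′ end (8.34, rank 28714). The lowest nuclear signal in that list was 8.06, and its median was 11.9, so the swsn-2.2 region and both ham-3 regions were below the median.

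**Figure D4:**
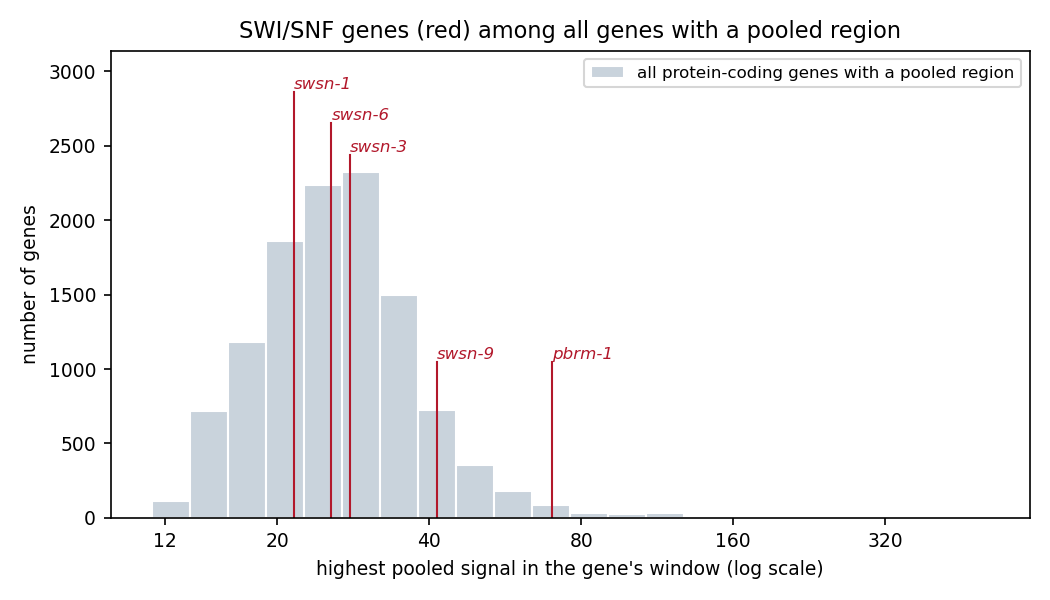
The number of genes (vertical) is plotted against the highest pooled signal in the gene's window (horizontal, log scale) for the 11417 protein-coding genes with a pooled region; red lines mark the 5 SWI/SNF genes and their height has no meaning. The lines of swsn-1, swsn-6 and swsn-3 fall in the bulk of genes, and those of swsn-9 (41.4) and pbrm-1 (70.2) to the right of it.

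Over the 27 pooled regions of the complex, 12 had a region in both replicates (44.4%), against 49.3% of all pooled nuclear regions. Of the rest, 6 had one in replicate 1 alone, 8 in replicate 2 alone and 1 in neither (3.70%, against 5.31%). In the 12 shared regions the pooled signal was 0.671 to 1.30 times the sum of the replicates. Summits lay upstream of the gene start in 17 cases and within the gene in 10, and the nearest protein-coding start was that of the SWI/SNF gene in 12 cases. None fell in a coding exon, against 2.99% of all pooled nuclear summits, and 9 fell in a UTR of some gene (33.3%, against 5.67% of all pooled nuclear summits and 6.33% of those in any gene's window). Several regions share a gene, so these counts are descriptions and were not tested.

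EOR-1 is known for binding GAGA-like sequence, and a longer and a shorter word of that kind were searched. The longer words GAGACGCAG and AGACGCAGA, which share 8 bases when staggered, were searched on both strands within 50 bp of each summit. They were at 0 of the 27 SWI/SNF summits, against 0.380% of all pooled nuclear summits and 11.7% of nuclear optimal summits. Of the 27, 1 was an optimal peak, so 0.380% is the closer comparison. At that share, 27 summits are too few to show a lack of the motif. The shorter word GAGAG, which can overlap the first of these and was searched in the same way, was at 6 of 27 (22.2%), against 7.03% of all pooled nuclear summits and 32.8% of optimal ones. The 6 were spread over pbrm-1 (2 regions), swsn-6 (2), swsn-3 and swsn-1 (1 each), and did not include the optimal peak of pbrm-1 or the start region of swsn-9. The windows of the SWI/SNF summits had a median GC content of 24.8%, close to the 25.7% at all pooled nuclear summits, and the median at nuclear optimal summits was 40.6%. At the optimal peak of pbrm-1 it was 20.8%, and 19 of the 256 nuclear optimal peaks had that value or less.

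The sequences at 3 SWI/SNF summits are shown to let these windows be read, chosen as the strongest region off the first chromosome and those of the regions with GAGAG on the other chromosomes whose windows touch no UTR. Each gives the plus strand of build WBcel235 (RefSeq genome), 50 bases to either side of the summit, with GAGAG or its reverse complement in capitals. The first is III:2769118-2769218 upstream of swsn-3, the second IV:5390017-5390117 upstream of swsn-6 and the third V:20249009-20249109 in an intron of swsn-1.
swsn-3: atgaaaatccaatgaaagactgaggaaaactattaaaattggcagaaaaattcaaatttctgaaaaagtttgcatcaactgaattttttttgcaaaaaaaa
swsn-6: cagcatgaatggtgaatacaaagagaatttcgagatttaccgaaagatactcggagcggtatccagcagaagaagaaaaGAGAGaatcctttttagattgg
swsn-1: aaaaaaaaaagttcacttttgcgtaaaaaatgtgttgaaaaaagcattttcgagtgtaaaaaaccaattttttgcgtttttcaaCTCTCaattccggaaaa
The swsn-3 window, at the region that both replicates listed, held neither word and had a GC content of 24.8%, and that of swsn-1 was 27.7%. The swsn-6 window, at a region of replicate 1 alone, had 39.6%.

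Further remodelling genes were looked up in the same way. Among 3 further SWI/SNF genes, let-526, which encodes the ARID subunit of the BAF form, had 7 pooled regions, the highest with 42.2 (26.6 in replicate 1 and 16.0 in replicate 2) in an intron, and phf-10 had 3, the highest with 30.6 (15.1 in replicate 1 and 16.0 in replicate 2). The dpff-1 gene had none in any list, and none of the 3 had an optimal peak. Of 17 genes of the ISWI, CHD, NuRD, INO80 and related complexes, 6 had a pooled region in their window, against 57.2% of all genes. Their windows held 0.193 pooled summits per kb, against 0.268 over all genes. Of the 17, 1 had an optimal peak, against 2.14% of all genes. That gene was nurf-1, which encodes the large regulatory subunit of the ISWI complex NURF, with peaks of 72.1 and 59.4 in introns, 9161 bp and 14617 bp inside the gene.

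The nurf-1 peaks are shown for comparison with the SWI/SNF windows, in the same layout, at II:14399824-14399924 (72.1) and II:14405280-14405380 (59.4).
nurf-1 (72.1): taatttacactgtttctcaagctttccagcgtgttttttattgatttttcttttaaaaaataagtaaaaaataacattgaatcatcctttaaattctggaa
nurf-1 (59.4): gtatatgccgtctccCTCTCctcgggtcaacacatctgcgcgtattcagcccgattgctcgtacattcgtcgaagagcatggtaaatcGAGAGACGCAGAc
The weaker peak held both forms of the longer motif within its capitals, beside GAGAG, and had a GC content of 53.5%. The stronger one held neither word. The GC content was 20.8% at the optimal peak of pbrm-1 and 23.8% at this stronger nurf-1 peak.

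Neither gene of the EOR pair had an optimal peak. At eor-1, the gene carried by the transgene, none of the 3 candidate lists had a summit in the window. At eor-2, which encodes the known partner of EOR-1, the pooled list had 5 regions, the highest with 23.2.

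The neighbourhoods of the members differed in how many candidates they held. Within 50000 bp of the gene start there were 59 pooled summits at pbrm-1, 51 at swsn-6, 39 at swsn-3, 34 at swsn-1 and 27 at swsn-9, against a median of 27 over all genes. At the 3 genes with no candidate in any list there were 20 (swsn-4), 18 (swsn-7) and 17 (snfc-5), below that median. At swsn-2.2 there were 25 and at ham-3 35. Each count includes the summits in the gene's own window, which raises it at genes that have regions. The part that this local density plays in which members had a region was not tested.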

How the data were processed

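The authors deposited peak lists, not reads or coverage. Per the deposited README, candidate lists were derived from the alignments of 1 replicate, or of both for the pooled list, plus a control. The optimal list was derived from these 3 lists and thresholded by the irreproducible discovery rate (IDR). Not given in the sources used here are the aligner, caller and IDR threshold. Each region carries the authors' signal value, on an unstated scale, and the −log10 of a q value as deposited. Lists in ce10 were not used, because the annotation and genome were of ce11.

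Windows, ranks (by signal, over each whole list), overlaps by 1 bp or more, motif matches and GC content were computed with Python 3.11.15, numpy 2.4.6, pandas 2.3.3 and matplotlib 3.10.9 on Ensembl release 115 genes. Where several replicate regions overlapped a pooled one, that with the nearest summit was taken. The window assignment was tested on simulated data. No statistical test was run: there is 1 group, and counts are set beside those over all protein-coding genes. All 10 members are named. Of the other remodelling genes those with an optimal peak are named, and the peaks likest that at pbrm-1 are those of nearest signal among peaks with no replicate 1 region. The members and lists were chosen with earlier results of these data known. Alternatives were other windows, region overlap, the nearest start alone, a stricter list, each replicate alone and other motif windows.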

Additional observations from a re-analysis of the deposited data

How the results depend on the processing

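With 1000 bp upstream in place of 5000 bp, 3 genes in place of 5 had a candidate in each replicate, not always at the same place (36.5% of all genes in place of 56.5%). In place of 27 pooled summits, 14 were counted. With 2000 bp 17 summits were counted, and with 10000 bp 44. Counting a summit only for the nearest start left 0 genes with an optimal peak and 0 with a strong region. For each, the share of all genes was 0.981% in place of 2.14%. A strong region is one with a pooled signal at or above the lowest nuclear optimal one. These are the same 256 nuclear regions as the optimal ones, so the counts are not separate results. The nearest-start rule left 3 genes with a pooled candidate (42.8% of all genes in place of 57.2%). It left 3 with one in each replicate (37.9% in place of 56.5%), and 12 summits. In the first 10000 regions of each list, 3 genes had a candidate in each replicate (28.4% of all genes) and 9 pooled summits were counted. Taking the first 1000 pooled nuclear regions as strong, 2 genes in place of 1 had one (7.08% of all genes in place of 2.14%).

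Without replicate 1 or without replicate 2, taking the other list's strongest regions, the genes with an optimal peak and those with a strong region were 0 in each case (2.02% to 2.11% of all genes). The genes with a candidate were 5 to 7 (63.7% to 63.8% of all genes) and the summits 25 to 27. At the optimal peak of pbrm-1, the absence in replicate 1 and the presence in replicate 2 held under the 3 other matching rules, and the longer motif was at 0 summits under all 3 other windows. No paired analysis was possible because there is 1 group and no contrast. Unknown depth limits all signal values.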
